A study of Mus musculus with 20 samples.

Results

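Phase II conjugation enzymes join drugs, steroids, bilirubin, bile acids and reactive molecules to a polar group, and 67 of the 54532 gene rows of the mouse liver table belonged to them. They were chosen by gene symbol alone and fell into 21 UDP-glucuronosyltransferase genes (UGT, families Ugt1a, Ugt2a, Ugt2b and Ugt3a), 21 sulfotransferase genes (SULT) and 25 glutathione S-transferase genes (GST), the latter with the 3 microsomal genes Mgst1, Mgst2 and Mgst3. The table holds 20 libraries of polyadenylated RNA from liver, with 5 in each of 4 groups: sham-operated wild type (Sham_Wt), sham-operated STING knockout (Sham_KO), wild type after bile duct ligation (BDL_Wt) and STING knockout after bile duct ligation (BDL_KO), with 7 days of ligation. Tying off the bile duct holds bile back in the liver (cholestasis), and STING is an adaptor in the sensing of cytosolic DNA. The series asks how its loss alters gene expression in cholestatic mice. The labels give neither strain, age nor sex, nor which part of the STING gene was deleted, and the Abcb4-deficient mice of the series design were not analysed here.

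UGT enzymes transfer glucuronic acid from UDP-glucuronic acid in the endoplasmic reticulum, SULT enzymes transfer sulfate from PAPS in the cytosol, and GST enzymes couple glutathione to electrophiles. Hepatocytes hold much of this capacity, and nuclear receptors, NRF2 and the sex-dependent rhythm of growth hormone are known to control parts of it. Glucuronides, sulfates and glutathione conjugates leave the hepatocyte through transporters toward bile or blood, so cholestasis is a setting in which the supply of these enzymes matters.

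Levels are given in FPKM, a fragment count scaled by transcript length and sequencing depth. Fold changes are on the scale of log2(FPKM + 0.5), where limma compared group means of 5 libraries each, and ± gives their standard error; this scale understates changes of genes with low values. A gene was tested if it reached 0.5 FPKM in at least 5 of the 20 libraries, and was called at a Benjamini-Hochberg adjusted p under 0.05 over all 14059 genes tested. Depth was 14.95 M to 20.9 M assigned fragments per library (M, mega), so that 1 fragment added 0.0467 to 0.0734 FPKM to a transcript of 1 kilobase. Tmem173, the gene of STING, differed by -0.80 ± 0.24 between knockout and wild type after sham surgery (limma adjusted p = 0.0779) and by -1.17 ± 0.24 after ligation (limma adjusted p = 0.00444). Summed over 15 hepatocyte markers, the level was 57447 to 82049 FPKM in the 10 sham libraries, against 28044 to 38863 in ligated wild-type and 37677 to 72457 in ligated knockout libraries. Libraries BDL_KO_2248 and BDL_KO_2359 stood apart from their group, with 72457 and 60143 FPKM of hepatocyte markers and 69.4 and 90.1 FPKM of cholangiocyte markers, where the other 3 ligated knockout libraries had 342 to 570, the ligated wild-type libraries 233 to 621 and the sham libraries 26.8 to 37.4. Y-linked transcripts were found in 10 libraries (2 of Sham_Wt, 3 of Sham_KO, 3 of BDL_Wt, 2 of BDL_KO) and Xist, made from the inactive X chromosome, in the other 10. In whole liver, fewer cells of a type and less RNA per cell cannot be told apart.

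Many of these genes lie in tandem clusters of similar copies, which bears on what could be counted. The 9 Ugt1a genes span chr1:88055388-88220002 (GRCm38) and share their last exons, so that only 17.3 to 49.7% of each one's exonic bases were its own. Ugt1a8 was at 0 in all 20 libraries although it shares these exons, so fragments on them had not been given to every Ugt1a gene. The 10 Ugt2 genes span chr5:86889767-87490871, with Sult1b1, Sult1d1 and Sult1e1 beside them at chr5:87513339-87591594. The 8 Sult2a genes lie at chr7:13623967-14494230, the 7 Gstm genes at chr3:107895821-108044894, the 3 Gstp genes at chr19:4035407-4059569 and Gsta1, Gsta2 and Gsta4 at chr9:78182774-78355788. Of the 100-base stretches of Gsta1 80.6% also occur in another gene, mostly Gm3776, and the share was 46.9% for Gstp2, 34.6% for Sult2a2, 28.4% for Gsta2, 25.1% for Gstp1 and 24.7% for Ugt2b5, so that reads of these genes could be split with their copies. Sult2a8, Sult1e1, Ugt2b1, Ugt3a1, Gsta3, Gstm7 and Mgst1 shared no such stretch.

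Start-site sequences show how close some of these copies are, and 59 of the 67 members had an entry in the RefSeq promoter table (GRCm38.p6). The first pair is shown because Gsta1 and Gsta2 both had their highest values after ligation. In the 150 bases before each start, capitals mark stretches of at least 12 bases that both promoters hold, the longest being 29 bases. Gsta1 lies at chr9:78230519-78230668 on the plus strand and Gsta2 at chr9:78347146-78347295 on the minus strand.
Gsta1: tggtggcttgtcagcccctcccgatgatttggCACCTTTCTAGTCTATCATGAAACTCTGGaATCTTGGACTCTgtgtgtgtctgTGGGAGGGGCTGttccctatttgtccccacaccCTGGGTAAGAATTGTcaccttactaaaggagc
Gsta2: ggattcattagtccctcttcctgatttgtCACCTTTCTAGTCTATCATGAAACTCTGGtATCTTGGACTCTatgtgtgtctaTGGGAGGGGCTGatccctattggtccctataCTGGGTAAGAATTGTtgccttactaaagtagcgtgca

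The second set is shown because 4 neighbouring Ugt2b genes hold the letters AGGTCA (in capitals), a hexamer bound by many nuclear receptors, in a similar though not identical sequence before the start; Ugt2b35 holds these letters too and is not shown. All are on the minus strand: Ugt2b5 at chr5:87140341-87140392, Ugt2b36 at chr5:87092556-87092610, Ugt2b37 at chr5:87254792-87254857 and Ugt2b38 at chr5:87424204-87424258.
Ugt2b5: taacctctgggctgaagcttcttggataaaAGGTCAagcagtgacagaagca
Ugt2b36: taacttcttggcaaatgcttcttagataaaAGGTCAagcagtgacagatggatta
Ugt2b37: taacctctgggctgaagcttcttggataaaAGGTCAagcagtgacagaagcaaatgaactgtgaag
Ugt2b38: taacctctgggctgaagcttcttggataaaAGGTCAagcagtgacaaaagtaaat
AGGTCA on either strand was found in the 250 bases before the start of 11 of the 59 members (18.6%) and in 14.0% of the 32851 promoters in the table. Sult2a8 and Sult1e1 had the largest decrease and the largest increase after ligation in knockout livers and were picked on those values. Sult2a8 at chr7:14438686-14438739 and Sult1e1 at chr5:87591695-87591748, both on the minus strand, also hold AGGTCA, Sult1e1 as its reverse complement. The Sult2a8 stretch lies within the span of the gene given below, before a RefSeq start inside that span and not before its outer end. In wild type the largest increase was in Gsta1 (2.76), which held no AGGTCA in these 250 bases.
Sult2a8: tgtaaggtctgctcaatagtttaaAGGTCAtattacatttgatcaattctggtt
Sult1e1: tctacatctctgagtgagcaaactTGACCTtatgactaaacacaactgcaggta

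The third set is shown because the GST promoters are textbook sites of NRF2 and AP-1. Capitals mark TGACNNNGC in Gsta3 at chr1:21240440-21240496 on the plus strand, and TGAGTCAGC in Gstp1 at chr19:4037968-4037996 and Gstp2 at chr19:4042292-4042320 on the minus strand.
Gsta3: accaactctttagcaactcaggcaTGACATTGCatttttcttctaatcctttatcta
Gstp1: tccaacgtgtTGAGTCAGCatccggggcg
Gstp2: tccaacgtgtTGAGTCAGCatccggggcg
No member held both motifs. TGACNNNGC was found on either strand in 4 of the 59 members (6.78%; Gsta3, Gstm5, Gstm7 and Mgst1) and in 10.2% of all promoters. TGAGTCAGC was found in 2 members (3.39%) and in 0.347% of all promoters. A match of letters is a description and no measure of binding.

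Of the 67 members 51 passed the filter on low values, 16 of 21 UGT, 13 of 21 SULT and 22 of 25 GST genes. The 16 members too low to measure were Ugt1a2, Ugt1a8, Ugt1a10, Ugt2a1 and Ugt2a2 among the UGT genes, Sult1c1, Sult2a3, Sult2a4, Sult2a6, Sult2b1, Sult4a1, Sult6b1 and Sult6b2 among the SULT genes, and Gsto2, Gstt4 and Mgst2 among the GST genes. Of these, 5 were at 0 in every library (Ugt1a8, Ugt2a1, Ugt2a2, Sult1c1 and Sult2a6), and Sult2a4 rested on 1 fragment in all. Ugt1a10, an isoform known from the intestine, had the most, with 179 fragments over 20 libraries and at most 0.615 FPKM. Sult2a3 reached 1.06 FPKM in Sham_Wt_2228 and 0 in 14 libraries. At this depth a few fragments cannot be told from none. Some of the 16 had more, such as Sult2b1 with 19 fragments in BDL_Wt_2233 and Sult2a3 with 18 in Sham_Wt_2228. All 16 were under the filter and so were not tested, and no comparison is given for them.

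A few members made up most of each class. Over all libraries Ugt2b5 (mean 311 FPKM), Ugt2b36 (224 FPKM) and Ugt2b1 (127 FPKM) led the UGT class, which conjugates steroids, fatty acids and drugs through its Ugt2b members and bilirubin through Ugt1a1. Sult1a1, a phenol sulfotransferase, held 47.5% of the summed SULT level at 293 FPKM, followed by Sult2a8 at 123 FPKM and Sult1d1 at 69.8 FPKM. Mgst1, a membrane-bound transferase with peroxidase activity, led the GST class at 1195 FPKM, ahead of Gstm1 at 1048 FPKM and Gstp1 at 664 FPKM. These orders differed by condition. In Sham_Wt Sult2a8 (mean 237 FPKM) stood above Sult1a1 (202 FPKM), while in BDL_Wt Sult2a8 was at 3.89 FPKM, below Sult1a1 (345 FPKM) and Sult1d1 (56.7 FPKM). Ugt2b1, at 213 FPKM in Sham_Wt, was at 22.2 FPKM in BDL_Wt, below Ugt2b34 at 80.0 FPKM. Gstm1 stood above Mgst1 in both ligated groups.

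Transcript levels were also summed over each class. For the 21 UGT genes, Ugt3a1 and Ugt3a2 included, the median sum was 1557 FPKM in Sham_Wt (range 1165 to 1917), 1530 in Sham_KO (1173 to 1696), 697 in BDL_Wt (544 to 797) and 828 in BDL_KO (744 to 1078). The ligated and sham ranges of the UGT sum did not overlap in either genotype. The SULT sum had medians of 722 FPKM in Sham_Wt (492 to 896), 570 in Sham_KO (533 to 1134), 377 in BDL_Wt (294 to 713) and 408 in BDL_KO (291 to 1404), with overlapping ranges throughout. For the GST sum the medians were 3492 FPKM in Sham_Wt (2696 to 6194), 4810 in Sham_KO (2918 to 6443), 2721 in BDL_Wt (2586 to 3666) and 4948 in BDL_KO (2576 to 5128). In both sham groups the GST sum separated the library types, from 4810 to 6443 FPKM in the 5 libraries with Y-linked transcripts and from 2696 to 3492 in the 5 with Xist. The SULT sum separated them the other way, from 492 to 570 FPKM with Y-linked transcripts and from 676 to 1134 with Xist. Within each sham group the UGT sum was also higher in every library with Y-linked transcripts than in any with Xist.

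**Figure D1:**
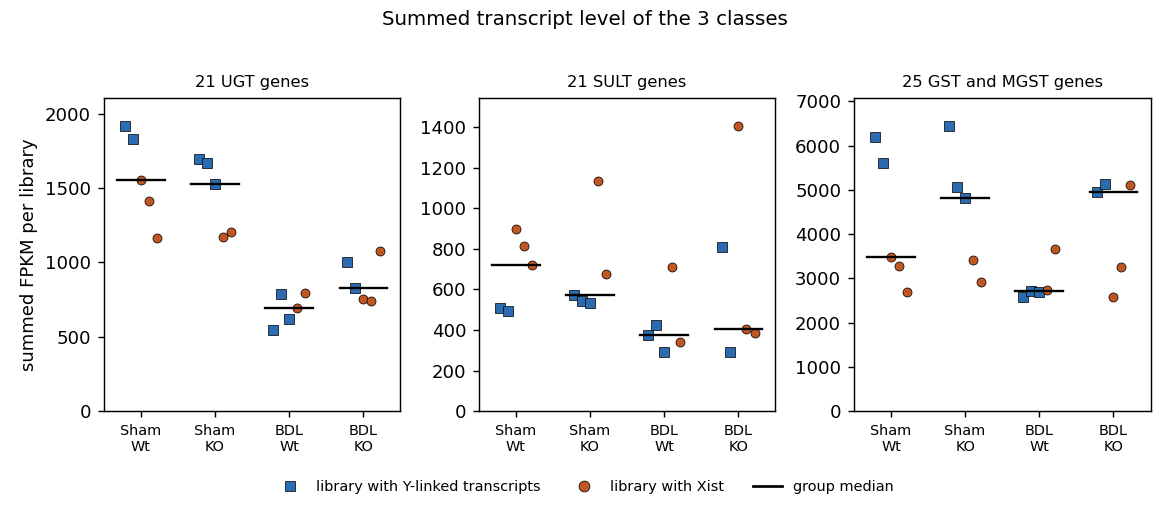
Summed FPKM of the 21 UGT, 21 SULT and 25 GST genes in each library (vertical axes, from 0) for the 4 groups of 5 libraries (horizontal axes). Squares are libraries with Y-linked transcripts, circles libraries with Xist, and bars group medians. The UGT sum lies between 544 and 1078 FPKM in the 10 ligated libraries and at 1165 or more in the 10 sham libraries, while the GST sum of ligated knockout libraries spreads from 2576 to 5128 FPKM.

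Ligation in wild-type livers lowered many of the tested conjugation enzymes, and by class a majority only among the UGT genes. Of 51 members 26 fell and 5 rose, or 60.8%, where 35.6% of all 14059 genes were called (17.5% lower and 18.1% higher). Ugt1a7c, 1 of the 5 that rose, reached 0.5 FPKM in 7 ligated and 0 sham libraries, so the filter itself favoured a rise in it; without it 26 of 50 fell and 4 rose. Groups did not overlap in 27 members, 4 higher and 23 lower in ligated livers, and in 31.8% of all genes. The median log2 fold change was -0.86 over the members and -0.02 over all genes tested. By class, 11 of 16 UGT genes fell and 1 rose (median -1.18), 5 of 13 SULT genes fell and 1 rose (median -1.71), and 10 of 22 GST genes fell and 3 rose (median -0.51). Beside this, 8 of 15 hepatocyte markers and 8 of 8 pericentral markers fell, and 8 of 8 cholangiocyte and 7 of 8 monocyte and macrophage markers rose. The part of cell composition in the members' changes was not tested.

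Among UGT genes the largest decrease was in Ugt2b1, a steroid- and drug-conjugating isoform (ENSMUSG00000035836, chr5:86916638-86926530, minus strand). It measured 339, 287, 156, 155 and 129 FPKM in the 5 Sham_Wt libraries and 16.6, 17.3, 32.6, 6.76 and 37.9 FPKM in the 5 BDL_Wt libraries. Every ligated value lay below every sham value, a log2 fold change of -3.35 ± 0.43 (limma adjusted p = 1.39e-05). Ugt3a1, whose enzyme uses UDP-N-acetylglucosamine in place of UDP-glucuronic acid (chr15:9276888-9315032), was at 28.2, 26.8, 27.0, 29.2 and 19.2 FPKM in Sham_Wt and at 5.05, 7.26, 4.34, 5.16 and 9.43 FPKM in BDL_Wt. It fell by 2.02 on the log2 scale (SE 0.20, limma adjusted p = 8.63e-07), without overlap. Its neighbour Ugt3a2 fell from 139 ± 14.3 to 61.2 ± 15.0 FPKM (mean ± SD).

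The abundant Ugt2b5 was at 433 ± 126 FPKM in sham and 189 ± 38.6 FPKM in ligated wild-type livers, a change of -1.17 ± 0.24 (limma adjusted p = 0.000915). Ugt2b36 changed by -0.92, Ugt2b38 by -1.21, Ugt2b34 by -0.59 and Ugt2a3 by -1.51, all called. The call of Ugt2b34 was lost without BDL_Wt_2233 (-0.51). Of the other 2 genes tested in this cluster, Ugt2b35 and Ugt2b37, the log2 fold changes were -0.35 and -0.17, and neither was called. Thus of the 5 Ugt2b genes that hold AGGTCA before the start, Ugt2b5, Ugt2b36 and Ugt2b38 fell, and Ugt2b35 was not called. Ugt2b37, at 4.01 ± 1.04 FPKM in sham and 3.75 ± 1.76 FPKM in ligated livers, was not called either. Among the 7 Ugt2b genes with a promoter entry, Ugt2b1 (-3.35) and Ugt2b34 (-0.59) held no AGGTCA in the bases searched, and both fell. Whether the motif bears on these changes was not tested.

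Ugt1a1, the bilirubin-conjugating isoform, fell from 56.0 ± 12.6 to 24.3 ± 6.81 FPKM, a log2 fold change of -1.20 ± 0.29 (limma adjusted p = 0.00351). Ugt1a5 (-1.84) and Ugt1a9 (-1.43) fell too. The call of Ugt1a9 was lost without any 1 of Sham_Wt_2227, Sham_Wt_2228, BDL_Wt_2233, BDL_Wt_2235 and BDL_Wt_2237 (-1.38 to -1.29). Ugt1a6a (-0.50) and Ugt1a6b (0.00), isoforms known for conjugating planar phenols, were not called. Ugt1a7c alone of the UGT genes rose, by 0.84 ± 0.18, from 0.187 ± 0.0751 to 0.744 ± 0.243 FPKM. It had 9 to 19 fragments per library in Sham_Wt and 37 to 79 in BDL_Wt. Ugt1a7c passed the filter through ligated libraries alone and, as for all Ugt1a genes, its level rests on exons of its own in part.

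In the SULT class Sult2a8 changed most of all 51 members. This hepatic enzyme of the hydroxysteroid family, described as a bile acid sulfotransferase (ENSMUSG00000030378, chr7:14410686-14446769, minus strand), measured 332, 296, 204, 194 and 159 FPKM in Sham_Wt and 1.15, 2.85, 2.02, 1.12 and 12.3 FPKM in BDL_Wt. Every ligated value lay far below every sham value, and the log2 fold change was -6.20 ± 0.52 (limma adjusted p = 1.99e-07). Sult5a1 was at 4.52, 3.50, 11.9, 8.96 and 4.94 FPKM in Sham_Wt and at 0.0666, 0.363, 0.232, 0.393 and 0.704 FPKM in BDL_Wt, again without overlap (-3.0 ± 0.27, limma adjusted p = 3.98e-07). Sult1b1, which sulfates thyroid hormones and phenols, fell by 1.35, and Sult1c2 fell by 1.60, with ligated levels of 3.44 ± 0.752 and 0.712 ± 0.220 FPKM. Sult2a7, at 2.04 ± 2.55 FPKM in sham livers, fell by 1.74, with 0 to 4 fragments in each BDL_Wt library. It reached 0.5 FPKM in 7 sham libraries and 1 ligated library, so it passed the filter almost only through the side where it was high.

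Sult1a1 rose, by 0.80 ± 0.29 (limma adjusted p = 0.0345). It measured 116, 138, 252, 272 and 231 FPKM in Sham_Wt and 329, 350, 252, 519 and 275 FPKM in BDL_Wt, so the lowest ligated value lay close to the upper sham values. This call was lost when any 1 of Sham_Wt_2223, Sham_Wt_2224, BDL_Wt_2233, BDL_Wt_2235 and BDL_Wt_2237 was left out, with log2 fold changes of 0.62 to 0.81 in these 5 fits. Sult1d1, which sulfates catecholamines, stood at 63.4 ± 23.4 FPKM in sham and 56.7 ± 29.3 FPKM in ligated livers and was not called (-0.21 ± 0.38).

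The GST class moved both ways. Gstt1 fell from 166 ± 28.4 to 58.4 ± 18.2 FPKM (-1.52 ± 0.22, limma adjusted p = 4.56e-05), Gstt3 fell by 1.68 and Gsta3 fell from 289 ± 64.2 to 102 ± 20.8 FPKM (-1.50 ± 0.25). Smaller decreases were called in Gstm6 (-0.92), Gstm4 (-0.90), Gstz1 (-0.86), the maleylacetoacetate isomerase of tyrosine breakdown, Mgst1 (-0.76), Gsto1 (-0.70), Gstm7 (-0.69) and Gstk1 (-0.51), a mitochondrial and peroxisomal form. The call of Gstk1 was lost without BDL_Wt_2236 (-0.41). Gstm1, the most abundant soluble form, was at 1011 ± 306 FPKM in sham and 930 ± 194 FPKM in ligated livers and was not called (-0.08 ± 0.25).

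Gsta1, Gstm3 and Gstm5 rose. Gstm3 (chr3:107963696-107969283, minus strand) measured 35.2, 40.2, 42.1, 38.8 and 24 FPKM in Sham_Wt and 141, 138, 192, 136 and 473 FPKM in BDL_Wt, where every ligated value exceeded every sham value (2.40 ± 0.64, limma adjusted p = 0.00659). Gsta1 (chr9:78230656-78242684) measured 7.17, 6.79, 0.810, 1.62 and 0.261 FPKM in Sham_Wt and 32.0, 13.1, 23.3, 5.67 and 25.9 FPKM in BDL_Wt. Its lowest ligated value fell within the sham range, and the change was 2.76 ± 0.85 (limma adjusted p = 0.0158). Gsta2, whose promoter shares the stretches shown above, was at 19.0 ± 9.78 FPKM in sham and 38.0 ± 11.4 FPKM in ligated livers but was not called (1.17 ± 0.50, limma adjusted p = 0.0750). Gstm5 rose by 0.51 ± 0.12, from 5.78 ± 0.814 to 8.42 ± 0.901 FPKM. Thus within the Gstm cluster 2 genes rose, 3 fell, and Gstm1 and Gstm2 were not called.

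**Figure D2:**
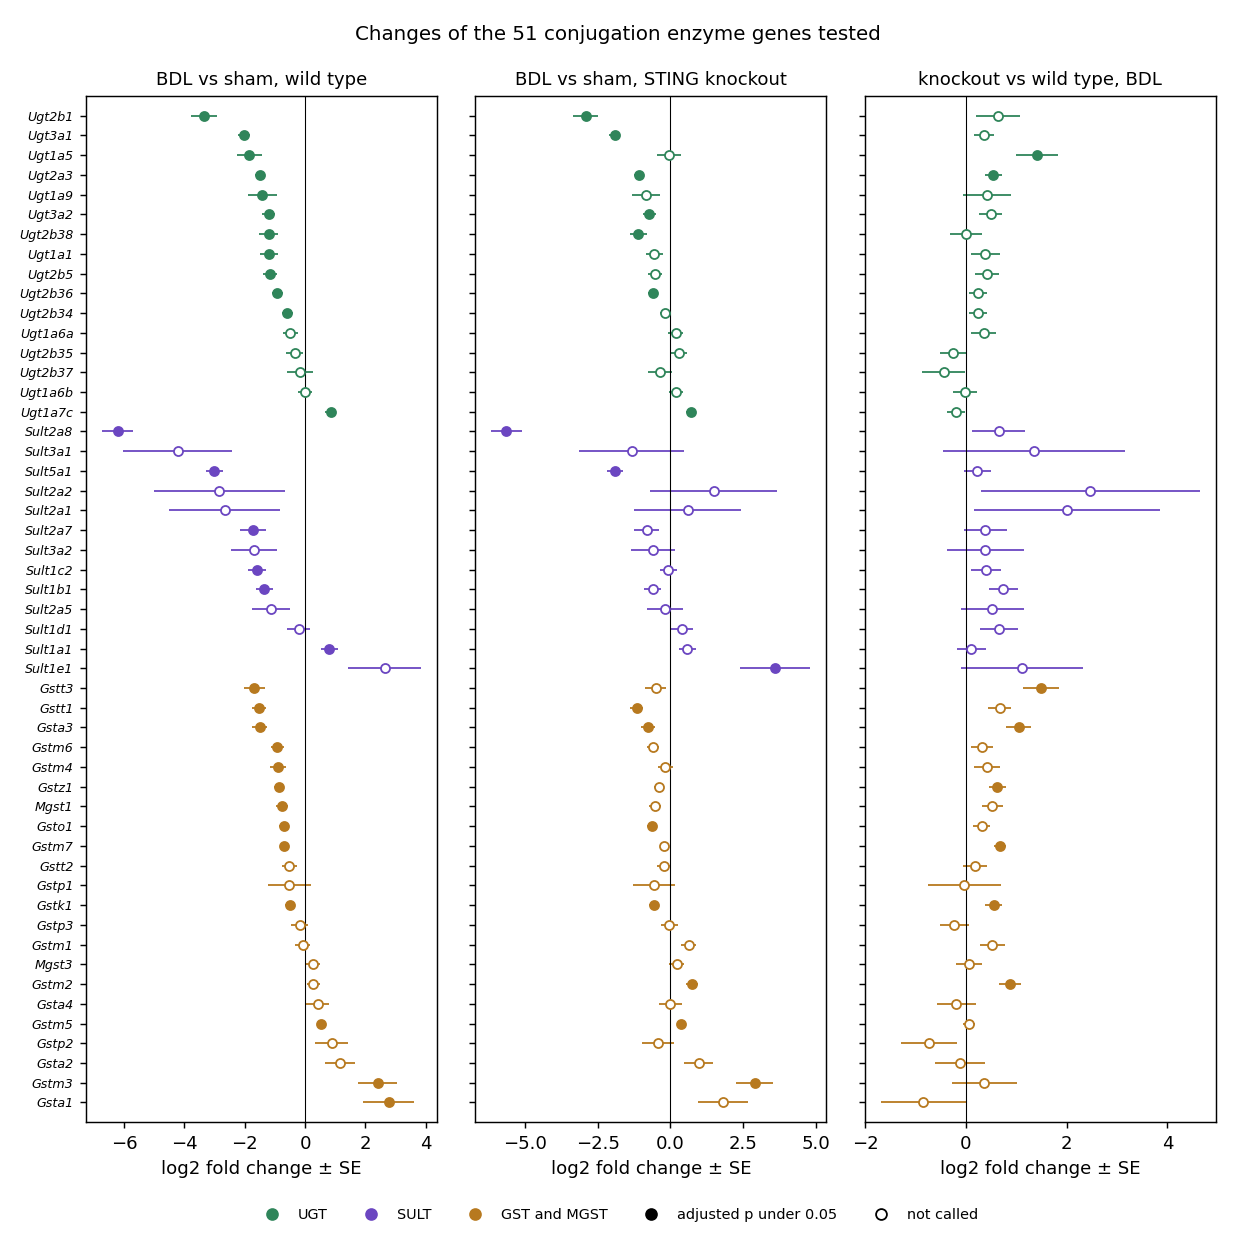
Log2 fold change ± standard error (horizontal axes, 1 scale per panel) of the 51 tested members, ordered by class and by their change after ligation in wild type, for ligation in wild type, ligation in STING knockout and knockout against wild type after ligation. Filled points have an adjusted p under 0.05 over all 14059 genes. In the left panel 26 filled points lie below 0 and 5 above, and in the right panel all 8 filled points lie above 0.

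In STING knockout livers ligation lowered 12 members and raised 5 of 51, or 33.3%, against 25.1% of all genes (12.9% lower, 12.3% higher), with a median of -0.35. All 12 that fell were also among the 26 that fell in wild type, and 3 of the 5 that rose (Ugt1a7c, Gstm3 and Gstm5) rose in wild type too; without Ugt1a7c, favoured by the filter as above, 4 rose, 2 of them in both genotypes. By class 6 of 16 UGT, 2 of 13 SULT and 4 of 22 GST genes fell, and 1, 1 and 3 rose. Beside this, 6 of 15 hepatocyte and 4 of 8 pericentral markers fell, and 6 of 8 cholangiocyte markers rose. Without libraries BDL_KO_2248 and BDL_KO_2359 the number that rose was 9.

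The strongest decreases in the knockout were in genes already named. Sult2a8 measured 319, 261, 266, 191 and 191 FPKM in Sham_KO and 12.6, 5.20, 2.01, 1.38 and 7.22 FPKM in BDL_KO, a log2 fold change of -5.63 ± 0.52 (limma adjusted p = 1.26e-06). Ugt2b1 was at 316, 318, 278, 126 and 169 FPKM in Sham_KO and at 33.4, 51.9, 14.1, 23.0 and 40.7 FPKM in BDL_KO (-2.91 ± 0.43, limma adjusted p = 0.000134). Both genes had no overlap between ligated and sham knockout libraries. Ugt3a1 (-1.91), Sult5a1 (-1.89), Gstt1 (-1.15), Ugt2b38 (-1.09), Ugt2a3 (-1.08), Gsta3 (-0.77), Ugt3a2 (-0.72), Gsto1 (-0.64), Ugt2b36 (-0.58) and Gstk1 (-0.56) also fell. The call of Gsta3 was lost without any 1 of Sham_KO_2347, Sham_KO_2349, BDL_KO_2365 and BDL_KO_2370 (-0.74 to -0.63), and that of Ugt3a2 without any 1 of Sham_KO_2347, BDL_KO_2365, BDL_KO_2370 and BDL_KO_2371 (-0.69 to -0.57). Without BDL_KO_2370 the calls of Ugt2b36 (-0.52) and Gstk1 (-0.46) were lost, and without both BDL_KO_2248 and BDL_KO_2359 that of Ugt2b38 (-0.93). Ugt1a1 changed by -0.55, Ugt2b5 by -0.52 and Mgst1 by -0.54, and none of these was called.

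Among increases in the knockout, Gstm3 measured 46.5, 30.5, 36.6, 30.9 and 21.1 FPKM in Sham_KO and 209, 666, 25.7, 287 and 825 FPKM in BDL_KO, with BDL_KO_2248 alone inside the sham range (2.91 ± 0.64, limma adjusted p = 0.00311). Gstm2 rose by 0.74 ± 0.22, from 40.2 ± 5.84 to 69.2 ± 18.3 FPKM. Smaller increases were called in Ugt1a7c (0.72) and Gstm5 (0.38). The call of Gstm5 was lost without any 1 of Sham_KO_2349, Sham_KO_2350, Sham_KO_2353, BDL_KO_2365 and BDL_KO_2371 (0.30 to 0.37). Gsta1 was at 3.05 ± 1.90 FPKM in sham and 16.3 ± 15.8 FPKM in ligated knockout livers and was not called (1.81 ± 0.85, limma adjusted p = 0.128).

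Sult1e1, the estrogen sulfotransferase (ENSMUSG00000029272, chr5:87575969-87591594), had the largest increase in the knockout but an uneven one. It measured 0.0580, 0, 0.104, 0.409 and 0.451 FPKM in Sham_KO and 46.7, 0.651, 317, 1.76 and 0.490 FPKM in BDL_KO, the values of 46.7 and 317 belonging to BDL_KO_2359 and BDL_KO_2248. In wild type it measured 0, 0, 0.144, 0.0481 and 0.523 FPKM after sham surgery and 2.27, 4.99, 1.24, 26.5 and 0.648 FPKM after ligation. Every ligated value exceeded every sham value in both genotypes. It reached 0.5 FPKM in 9 ligated libraries and 1 sham library, so it passed the filter almost only through the side where it was high. For this gene limma called the knockout (3.60 ± 1.21, adjusted p = 0.0363) and not the wild type (2.63 ± 1.21, adjusted p = 0.10). The wild-type change of 2.63 was called when BDL_KO_2248 was left out of the shared model. The difference between these effects was 0.97 ± 1.72 (limma adjusted p = 0.869). Without both libraries the knockout change was 1.01 and was not called, and it was also not called without BDL_KO_2248 (2.29) or without BDL_KO_2359 (2.98) or any 1 of the 5 Sham_KO libraries.

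**Figure D3:**
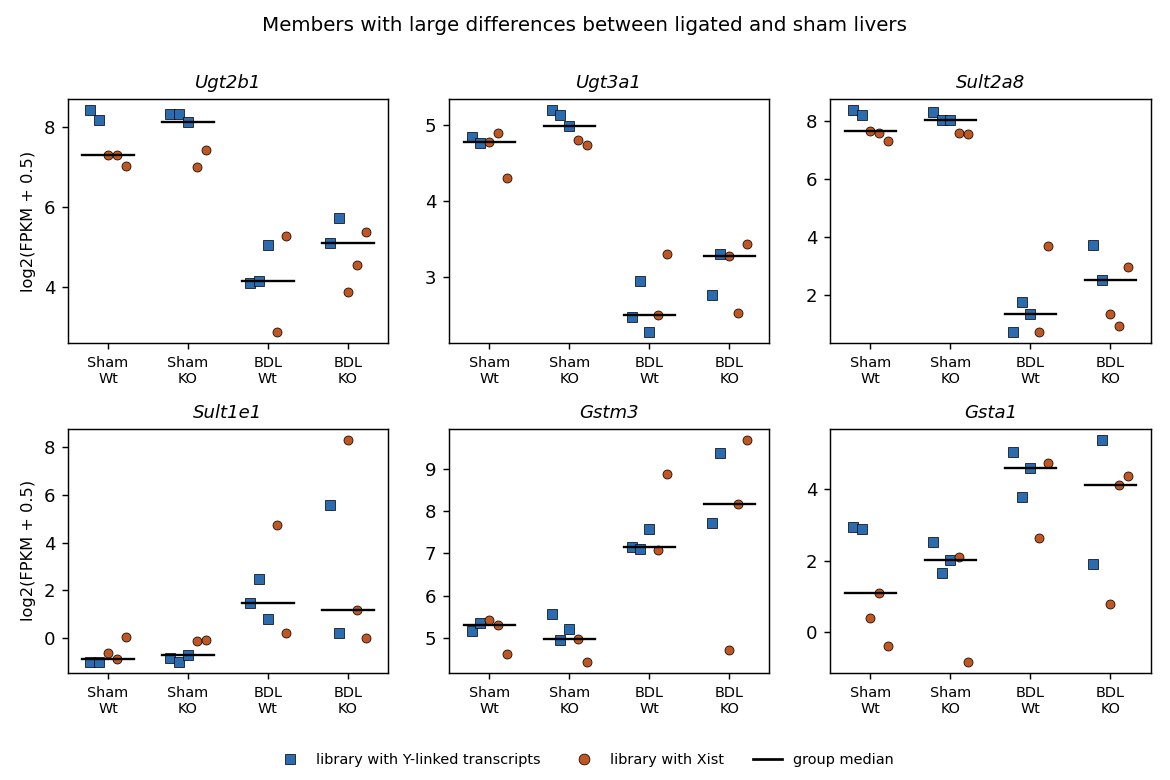
log2(FPKM + 0.5) of 6 members in each library (vertical axes), by group of 5 libraries. Squares are libraries with Y-linked transcripts, circles libraries with Xist, and bars group medians. Sult2a8 falls from 159 to 332 FPKM in sham livers to 1.12 to 12.6 FPKM in ligated livers of both genotypes, while Sult1e1 reaches 317 FPKM in 1 ligated knockout library and 0.490 FPKM in another.

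After sham surgery, knockout and wild-type livers differed in 2 of 51 members (3.92%, against 2.97% of all genes, 1.31% higher and 1.66% lower). Gstk1 was higher by 0.60 ± 0.16 (limma adjusted p = 0.0484), at 107, 89.3, 82.7, 93.0 and 80.1 FPKM in Sham_KO and 59.8, 60.8, 60.3, 62.5 and 52.4 FPKM in Sham_Wt; it was the 1 member whose groups did not overlap, as they did not in 8.07% of all genes. Sult1c2 was lower by 1.12 on the log2 scale (SE 0.29, limma adjusted p = 0.0429), with a mean of 1.24 ± 0.615 FPKM in Sham_KO and 3.24 ± 1.06 FPKM in Sham_Wt. No UGT gene was called, and 4 of the 51 members had an unadjusted p under 0.05, a threshold at which the share of all genes is not given. Beside this, 1 of 8 monocyte and macrophage markers and 1 of 5 Kupffer cell markers were lower in the knockout, and 0 of 15 hepatocyte markers differed. Both calls ended with library type as a covariate, and without any 1 of 14 libraries for Gstk1 and of 10 for Sult1c2.

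After ligation, knockout livers had higher levels of 8 members than wild-type livers and lower levels of 0, or 15.7% of 51, against 8.83% of all genes (3.46% higher, 5.37% lower). Groups did not overlap in 3 members (Gsta3, Gstm7 and Ugt1a5) and in 5.5% of all genes. At an unadjusted p under 0.05, 12 members were higher and 0 lower, and voom on recovered fragments called 7 higher and 0 lower. For these counts the share of all genes is not given, so they have no background beside them. The called genes were 6 of 22 GST genes, 2 of 16 UGT genes and 0 of 13 SULT genes, with a median log2 difference of 0.39 over all members. Beside these, 5 of 15 hepatocyte markers, 3 of 7 periportal and 2 of 8 pericentral markers were also higher, and 4 of 8 monocyte and macrophage and 2 of 8 cholangiocyte markers lower. The part of cell composition in this difference was not tested.

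Gstm7 gave the smallest p of these. It measured 41.5, 38.0, 29.6, 26.6 and 35.4 FPKM in BDL_KO and 19.9, 21.9, 17.8, 21.4 and 23.9 FPKM in BDL_Wt, with every knockout value above every wild-type value (0.68 ± 0.12, limma adjusted p = 0.00117). Gsta3 measured 397, 149, 183, 139 and 252 FPKM in BDL_KO and 71.1, 113, 90.8, 123 and 112 FPKM in BDL_Wt, also without overlap (1.05 ± 0.25, limma adjusted p = 0.0130). Gstt3 was higher by 1.49 ± 0.36, Gstm2 by 0.87 ± 0.22, Gstz1 by 0.62 ± 0.17 and Gstk1 by 0.55 ± 0.16. Of the UGT genes, Ugt1a5 was higher by 1.42 ± 0.42, with 40.9 FPKM in BDL_KO_2248 and 7.85 to 13.3 FPKM in the other 4 libraries against 3.27 to 5.77 FPKM in BDL_Wt, and Ugt2a3 by 0.55 ± 0.16.

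These calls depended on single libraries and on the fit. The call of Ugt1a5 was lost without any 1 BDL_Wt library, BDL_KO_2248, BDL_KO_2359, BDL_KO_2371 or Sham_KO_2349 (1.01 to 1.53). That of Ugt2a3 was lost without any 1 of BDL_Wt_2233, BDL_Wt_2236, BDL_Wt_2237, BDL_Wt_2240, BDL_KO_2359 and BDL_KO_2371 (0.41 to 0.58). It was also lost without any 1 of Sham_Wt_2223, Sham_Wt_2224, Sham_Wt_2227, Sham_Wt_2228, Sham_KO_2349, Sham_KO_2350, Sham_KO_2352 and Sham_KO_2353 (0.55). With only the 2 groups compared in the fit, 1 member was higher, and with only Xist libraries 0 were. Without BDL_KO_2359 only Gsta3 (0.81) and Gstm7 (0.61) of the 8 remained called, and without BDL_KO_2248 and BDL_KO_2359 together Gsta3 (0.79), Gstm2 (0.89) and Gstm7 (0.65) did. Without BDL_Wt_2233, or without BDL_Wt_2236, 3 of the 8 remained, and without BDL_Wt_2240 4 did. With values rescaled to TPM the number called was 3 and with scaling to total fragments 4, and these scalings moved the median of all genes by -0.28 and -0.19 in this comparison.

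The difference of the ligation effect between the genotypes was called in 0 of 51 members by limma and 0 by voom, against 0.377% of all genes. At an unadjusted p under 0.05, 5 members passed, all with a smaller decrease in the knockout: Sult1c2 (1.52 ± 0.41), Ugt1a5 (1.8 ± 0.59), Gstm7 (0.49 ± 0.17), Sult5a1 (1.11 ± 0.39) and Gstt3 (1.18 ± 0.51). The share of all genes at this unadjusted threshold is not given, so the count of 5 has no background beside it. The median interaction was 0.49 over the members and -0.00 over all genes. The 2 ligation effects share no libraries, but each shares a group with a genotype comparison.

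Several conjugation enzymes differed widely between libraries with Xist and libraries with Y-linked transcripts. Some Sult2a genes and the Sult3a genes are known for higher expression in the liver of female mice and Gstp1 for higher expression in males. With group in the model, 3 members were higher and 3 lower in the 10 Xist libraries, or 11.8% of 51 against 1.92% of all genes (0.839% higher, 1.08% lower). Sult2a2 was higher by 6.35 ± 0.54, Sult2a1 by 4.52 ± 0.83 and Sult3a1 by 4.21 ± 0.88. Sult3a1 reached 0.5 FPKM in 6 libraries, all with Xist, so the filter favoured this call; without the 3 members that passed through Xist libraries alone (Sult2a5, Sult3a1 and Sult3a2), 2 of 48 were higher and 3 lower. Sult2a1 and Sult2a2 reached it in 9 and 10 Xist libraries and in 1 library with Y-linked transcripts. Gstp1 was lower by 1.79 on the log2 scale (SE 0.33, limma adjusted p = 0.00587), Ugt2b38 by 0.68 and Ugt1a6b by 0.53. The call of Ugt2b38 was lost without any 1 of 11 libraries (-0.70 to -0.61) and that of Ugt1a6b without any 1 of 9 (-0.54 to -0.50).

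In the sham livers the split was clearest. Sult2a1, a hydroxysteroid sulfotransferase, was at 0 in all 5 sham libraries with Y-linked transcripts and at 81.1, 48.6, 11.7, 135 and 8.42 FPKM in the 5 with Xist, at least 269-fold higher on average if 3 fragments are taken as the limit in each library at 0. Sult3a1, an amine sulfotransferase, was at 0, 0, 0.0623, 0 and 0 FPKM in the former and 48.7, 64.4, 152, 60.3 and 64.3 FPKM in the latter. Sult2a2 was between 0 and 0.441 FPKM against 28.6 to 291 FPKM. Not all Sult2a genes went this way. Sult2a8 was at 332, 296, 319, 261 and 266 FPKM with Y-linked transcripts and at 204, 194, 159, 191 and 191 FPKM with Xist. This difference was not called (-0.66 ± 0.48). The minor copies Sult2a5 and Sult3a2 were at 0 in the 5 libraries with Y-linked transcripts and at least 11.5-fold and 19.4-fold higher, by the same limit, in those with Xist. Gstp1 measured 2144, 1800, 1711, 1267 and 1076 FPKM in the sham libraries with Y-linked transcripts and 338, 290.5, 167, 138 and 195 FPKM in those with Xist, a log2 difference of -2.98 ± 0.23 (limma adjusted p = 9.12e-07). Ugt2b38 (-1.12), Ugt2b35 (-0.95) and Ugt1a6b (-0.85) were lower in the sham libraries with Xist, so that 9 of 51 members were called in sham livers, or 17.6% against 2.21% of all genes (0.96% higher, 1.25% lower). Sult2a5, Sult3a1 and Sult3a2 passed the filter through Xist libraries alone, and without them 6 of 48 were called, 2 higher and 4 lower. The sham call of Sult2a1 was lost without Sham_KO_2352 (5.17), that of Sult2a5 without either of Sham_Wt_2223 and Sham_Wt_2224 (2.15), and that of Sult3a2 without any 1 of Sham_Wt_2223, Sham_Wt_2224, Sham_KO_2352 and Sham_KO_2353 (2.56 to 2.71).

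After ligation the same split was called in 1 member, Sult2a2 (5.25 ± 0.73, limma adjusted p = 0.00325), or 1.96% against 0.263% of all genes (0.121% higher, 0.142% lower). Gstp1 measured 389, 437, 426, 482 and 764 FPKM in the 5 ligated libraries with Y-linked transcripts and 352, 406, 200, 361 and 343 FPKM in those with Xist. Its high sham values were thus absent in ligated livers with Y-linked transcripts. Ligated libraries with Xist other than BDL_KO_2248 lay above the highest sham value with Xist (338 FPKM). For BDL_KO_2371 (343 FPKM) and BDL_Wt_2237 (352 FPKM) the distance was small. The change of this split with ligation was 2.38 ± 0.33 (limma adjusted p = 0.00327). For Sult3a1 the change was -5.78 ± 1.15 (limma adjusted p = 0.0459), as 4 of 5 ligated libraries with Xist had 0.0464 to 0.287 FPKM and BDL_KO_2248 had 36.5. Only these 2 members were called, 3.92% against 0.334% of all genes (0.142% higher, 0.192% lower). Without the 4 members that passed the filter through 1 surgery or 1 library type alone, Sult3a1 among them, 1 of 47 was called. The Sult3a1 call ended without any 1 of 19 libraries, and the Gstp1 call held without each of the 20.

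Pooled over both types, Gstp1 was at 948 ± 945 FPKM in Sham_Wt and 402 ± 33.3 FPKM in BDL_Wt, and its ligation effect was not called in wild type (-0.52 ± 0.72) or knockout (-0.56 ± 0.72). Sult2a1, Sult2a2 and Sult3a1 had pooled ligation effects of -2.67, -2.84 and -4.22 in wild type, with standard errors of 1.81 to 2.17, and none was called. In BDL_KO_2248, Sult2a1 was at 162 FPKM, above its highest sham value, and Sult2a2 at 222 FPKM, within its range in sham livers with Xist.

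**Figure D4:**
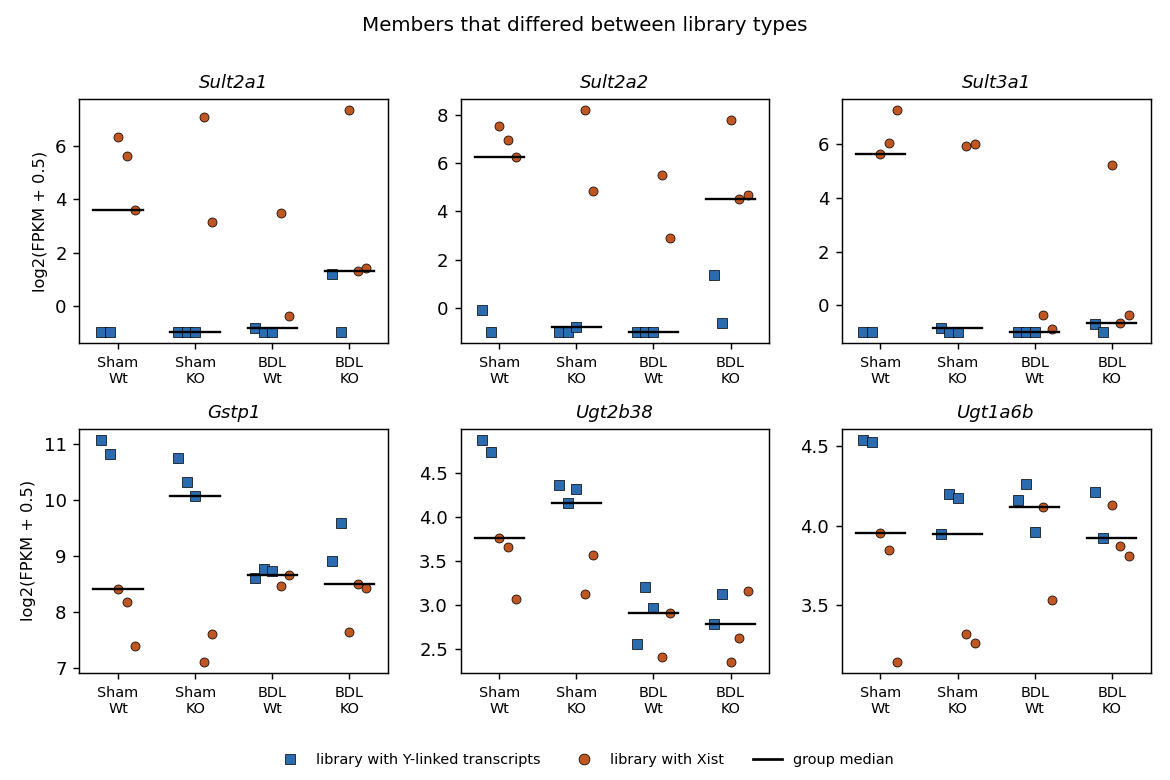
log2(FPKM + 0.5) of 6 members that differed between library types, in each library, by group of 5 libraries. Squares are libraries with Y-linked transcripts, circles libraries with Xist, and bars group medians. Sult2a1 and Sult3a1 lie at or near 0 FPKM in all squares of the sham groups, and the Gstp1 values of 1076 to 2144 FPKM in sham squares and 138 to 338 FPKM in sham circles draw together after ligation.

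Lists of genes that supply or surround these reactions were read in the same fit. Of all genes tested, 35.6% were called for ligation in wild type and 25.1% for ligation in the knockout. Of 7 genes of UDP-glucuronic acid supply and glucuronide handling, Ugdh, which makes UDP-glucuronic acid, rose by 0.69 and Gusb, the lysosomal glucuronidase, by 0.96 in ligated wild-type livers, and Ugp2, which makes UDP-glucose, fell by 0.91. In the knockout Ugdh (0.90), Slc35d1 (0.65), Gusb (0.45) and the export pump Abcc4 (0.75) rose and Ugp2 (-0.68) fell. Of 10 tested genes of PAPS supply and sulfate handling, Arsa rose (0.96) and Bpnt1 fell (-0.42) in wild type, and 2 rose and 1 fell in the knockout. Of 14 tested glutathione genes, Gss, the glutathione synthetase, rose by 0.58 and Glo1 (-1.32), Cbs (-1.04) and Chac2 (-0.78) fell in wild type, while in the knockout 2 rose and 3 fell.

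Of 16 other enzymes of drug and metabolite handling, 5 fell and 1 rose in ligated wild-type livers, where 35.6% of all genes were called. Not all of the 16 conjugate, as Ephx1 and Ephx2 are hydrolases and Aox3 and Nqo1 oxidoreductases. Inmt, an amine N-methyltransferase, was at 438 FPKM in sham and 34.7 FPKM in ligated wild-type livers (-3.81), and Acsm1 (-1.0), Ephx2 (-0.96) and Gnmt (-0.90) fell too. In the knockout 3 fell and 2 rose, and after ligation Inmt (1.75), Acsm1 (0.59) and Glyat (0.49) were higher in knockout than wild type. Of 19 regulators, 5 fell and 3 rose in wild type, beside the same 35.6% of all genes. Ppara (-1.07) and Stat5b (-0.58) were among those lower, and Mafk (1.18) and Nfe2l2 (0.98), the gene of NRF2, among those higher. In the knockout, where 25.1% of all genes were called, Ahr (0.84), Mafk (0.79) and Arnt (0.41) rose, and Ppara (-0.89) was among the 2 that fell. Of 9 tested NRF2 targets outside the classes, 4 rose and 1 fell in wild type and 6 rose in the knockout, with Hmox1 higher by 1.79 and 1.53 and Nqo1 called in the knockout (1.23). Bpnt1 (0.38) and Cbs (0.48) were higher and the regulator Mafk (-0.49) lower in knockout than wild type after ligation, and after sham surgery no gene of these 6 lists was called. Between library types, Cux2 (2.28) and Esr1 (0.83) were higher in libraries with Xist, and Aox3 (-1.36), Arsa (-0.92) and Tpmt (-0.61) were among those lower.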

How the data were processed

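Polyadenylated RNA of 20 mouse livers was sequenced from TRIzol extracts, per the labels' protocols. The authors deposited FPKM values in 1 table with a column per library. The submitters' processing notes name HISAT2 (2.0.5), fastp, CASAVA (1.8), DESeq2 (1.20.0), featureCounts (1.5.0-p3) and, as builds, mm10 and GRCm38; their roles and the release of the annotation are not given in the sources used here. Sample titles gave the groups. Whether each liver is from its own animal is not labelled, and p-values then reflect only how these libraries vary.

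From the FPKM and exonic lengths of GENCODE M21, 98.13 to 98.51% of low values (at most 20 fragments) were whole multiples of 1 fragment within 0.02, which gave fragments per gene. log2(FPKM + 0.5) of 14059 genes entered limma (3.58.1, under R 4.3.3) in 1 model with a mean per group, with variance trend and robust moderation. Library type came from Xist and Y-linked transcripts, and its effect within each surgery was fitted after seeing the data. Marker, pathway and member lists were chosen with earlier results of these data known. Called members with at least 1 FPKM in a group, the 3 most abundant per class and all members under the filter were named; so were a few members chosen after their values were seen. Promoters of RefSeq were searched over 250 bases. Alternatives were other pseudocounts, filters, scalings (TPM, median ratio, quantile, total fragments), array weights, fewer groups, voom, library type as covariate or alone, and libraries left out; scaling to total fragments and voom were added after seeing the data. Some genes of the pathway lists are not reported here. The fit was tested on simulated data. Files were read with pandas (2.3.3) and numpy (2.4.6) and figures drawn with matplotlib (3.10.9) in Python (3.11.15).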

Additional observations from a re-analysis of the deposited data

Results flagged for a closer look

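In 204 sets of 5 libraries (51 members in 4 groups), 18 held a library whose distance from the nearest of the others exceeded 71% of the set's range on the log2 scale; chance alone gives about 1 in 20. Sham_Wt_2229 was low in Gsta2 (4.12 FPKM), Gstk1 (52.4 FPKM) and Ugt3a1 (19.2 FPKM), and Sham_KO_2353 in Gsta1 (0.0651 FPKM), Gsta2 (6.72 FPKM) and Gsta4 (24.1 FPKM). BDL_Wt_2240 was high in Gstm3 (473 FPKM), Gstm4 (29.8 FPKM), Gstt1 (90.7 FPKM) and Ugt1a9 (24.5 FPKM), and BDL_Wt_2233 in Gstm5 (9.99 FPKM). BDL_Wt_2237 was high in Sult2a1 (10.6 FPKM), Sult2a5 (0.311 FPKM) and Sult3a1 (0.281 FPKM), BDL_KO_2248 in Sult2a1 (162 FPKM), Sult3a1 (36.5 FPKM) and Sult3a2 (1.42 FPKM), and Sham_KO_2352 in Sult2a5 (6.26 FPKM). These 4 Sult genes were found mainly in libraries with Xist, and the 3 libraries named with them have Xist.

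The effect of ligation differed between library types in Gstp1, by 2.38 on the log2 scale (limma adjusted p = 0.00327), and in Sult3a1, by -5.78 (limma adjusted p = 0.0459).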

How the results depend on the processing

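Of 76 called member results, 971 of 1140 values under settings other than the removal of 1 library kept direction and call, 169 lost the call and 0 reversed; with 1 library removed, 1379 of 1520 kept it and 141 lost it. The settings with most losses were only Xist libraries (46), TPM (23) and only Y-linked libraries (22). The first and the last of these also hold fewer libraries, and the cause of the losses was not tested.

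Counts below are members higher or lower. With only Xist libraries, ligation in wild type gave 1 higher and 8 lower, ligation in knockout 0 and 4, and both genotype comparisons 0 higher, with 0 lower after sham surgery. With only Y-linked libraries, ligation gave 3 higher in wild type and 3 in knockout, and the sham genotype comparison 0 and 0. TPM gave 7 lower for ligation in knockout, 0 and 0 for genotype after sham surgery, 3 higher after ligation, 5 higher and 1 lower for library type and 8 and 2 for library type in sham livers. It moved the log2 ratio of median sums to -0.55 for UGT (ligation in knockout) and 0.35 for GST (genotype after ligation). TPM also shifted the median of all genes by 0.32 for ligation in wild type and 0.18 in knockout, and the share of higher among called genes from 50.8 to 82.8% and from 48.8 to 77.0%; for genotype the share went from 44.0 to 10.5% after sham surgery and from 39.2 to 6.96% after ligation. Scaling to total fragments gave shares of 71.2, 57.8, 24.1 and 11.4%, 0 and 0 members for genotype after sham surgery, 4 higher after ligation and 8 higher for library type in sham livers.

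Without a filter, 3 were higher for ligation in knockout, 0 and 0 differed by genotype after sham surgery, 4 were higher after ligation, 1 was lower for library type and 0 lower for surgery by library type. With only the groups compared, 3 were higher for ligation in knockout and 1 for genotype after ligation. Without BDL_KO_2359 and BDL_KO_2248, 9 were higher for ligation in knockout, 5 for genotype after ligation, 1 for the interaction, 10 for library type, 9 in sham and 2 in ligated livers. Array weights gave 3 lower for genotype after sham surgery, 1 higher for the interaction, 10 higher for library type, and 9 and 8 in sham livers. Quantile normalization gave 2 lower for genotype after sham surgery, 4 higher after ligation and 0 lower for surgery by library type. A pseudocount of 0.1 gave 0 lower for genotype after sham surgery and 0 for surgery by library type. The library type covariate gave 0 higher for genotype after sham surgery. Voom gave 0 lower there, 3 higher for library type in sham livers, 0 in ligated livers and 0 lower for surgery by library type.

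Leaving out 1 library at a time gave 4 to 7 higher and 24 to 28 lower for ligation in wild type, 3 to 7 and 8 to 15 in knockout, 0 to 1 and 0 to 2 for genotype after sham surgery, 2 to 10 and 0 to 0 after ligation, and 0 to 1 and 0 to 0 for the interaction. It gave 3 to 9 higher and 1 to 3 lower for library type, 3 to 7 and 4 to 5 in sham livers, 1 to 1 and 0 to 0 in ligated livers, and 1 to 2 and 0 to 1 for surgery by library type. The log2 ratio of median sums ranged from -1.28 to -1.07 (UGT), -1.03 to -0.71 (SULT) and -0.74 to -0.31 (GST) for ligation in wild type, from -0.95 to -0.72, -0.61 to 0.09 and -0.23 to 0.27 in knockout, and from 0.15 to 0.39, 0.02 to 0.69 and 0.59 to 0.89 for genotype after ligation. No paired analysis was possible because each library carries a number of its own.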
